A study of Mus musculus with 4 samples.

Results

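The PIWI-interacting RNA (piRNA) pathway was followed through 10 of its genes, Piwil4, Piwil2, Piwil1, Tdrd1, Tdrd9, Mael, Mov10l1, Pld6, Tdrkh and Ddx4, in single-cell RNA-Seq of undifferentiated spermatogonia (A_undiff). The genes were chosen by name, with earlier results of these data known. All 10 were found among the 27514 genes listed for every library. Their levels were compared between Gfra1+, Sox3+ and Kit+ cells and cells rich in Ldhc and Meig1. They were also compared between untreated mice and mice recovering from busulfan (BU). BU is a DNA alkylating drug that depletes undifferentiated and differentiating spermatogonia.

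piRNAs are small RNAs of the germline that guide PIWI proteins to transposon transcripts and to transposon loci. Long precursor transcripts are recognised and cut at mitochondria and germ granules, loaded onto PIWI proteins, trimmed and methylated at their ends, and used either to slice transcripts in the cytoplasm or to direct DNA methylation in the nucleus. In the mouse testis the nuclear branch is best known from fetal germ cells, and a large second wave of piRNAs is made during meiosis.

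All mice were adult (6 to 8 weeks) C57BL/6J wild-type animals. The CTRL group was untreated, and the BU group received 10 mg/kg busulfan once and was taken at day 10. The sort kept cells with E-cadherin and α6-integrin (CD49f) and without c-KIT at the surface. The work was done in 2 experiments with a CTRL and a BU library each, named CTRL 1, CTRL 2, BU 1 and BU 2, each a pool of 3 mice, so that every comparison of conditions rests on n = 2 libraries per group. Paired values are given with experiment 1 first, and 4 values in the order in which the libraries are named here.

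The 4 libraries held 21136369 to 53579969 unique molecular identifiers (UMIs), and 1120 to 3101 cells per library passed the filters of over 1000 genes and under 20% mitochondrial UMIs. The median was 8066 and 9857 UMIs per cell in CTRL 1 and BU 1, against 30931 and 34176 in CTRL 2 and BU 2, which the labels give as made with another version of the droplet kit. CTRL 2 and BU 2 shared 677 cell barcodes, and the shallower copy of each held 0.970% to 1.93% of the UMIs of the deeper copy. Other pairs of libraries shared at most 11. Of the cells that passed, 4 and 45 in the CTRL pair of libraries, and 4 and 25 in the BU pair were the shallower copy of a barcode shared with another library. Results that lose or gain a call without them are named where they occur.

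Spermatogonia were the passing cells that were neither rich in Ldhc and Meig1 nor high in somatic markers, and numbered 3021 (CTRL 1), 955 (CTRL 2), 1961 (BU 1) and 1059 (BU 2). A cell was Gfra1+, Sox3+ or Kit+ when its UMIs of that gene, scaled to 100000 UMIs per cell, gave a natural log of over 2 after 1 was added. Gfra1 encodes the GDNF co-receptor of stem cells, Sox3 a transcription factor of progenitors and Kit the receptor of differentiating spermatogonia. Cells rich in Ldhc, a lactate dehydrogenase of spermatocytes and spermatids, and Meig1, a gene of late germ cells, had at least 2000 CPM of both together (CPM is the gene's UMIs scaled to a fixed total of counts, which takes no account of gene length). These numbered 71, 139, 24 and 150. Classes were compared with each other over cells that passed only 1 of the 3 thresholds, which left 10 and 6 Kit+ cells in the CTRL libraries against 149 and 49 in BU.

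The classes were checked against marker lists. The 5 spermatid markers (Spem1, Prm1, Prm2, Tnp1, Tnp2) were all detected in the Ldhc/Meig1-rich cells of every library, where they summed to 24741 to 95413 CPM. The median cell of this class had 11339, 3756, 2861 and 2387 CPM of them, against 148, 317, 101 and 333 in spermatogonia. These cells thus hold much spermatid RNA, but the sums lie well above the median cell. The same 5 markers summed over all spermatogonia to 1195 and 6001 CPM for the CTRL libraries against 674 and 2124 for BU. In the 6 Kit+ cells of CTRL 2 they reached 35818.5 CPM, since 2 of the cells were high in them. The 13 somatic markers summed to 19.8 to 44.2 CPM over all spermatogonia, with 1 or 2 of them at 0. Cells high in these same markers had been set apart, so a low sum follows from the filter and is no check. Among cells past 1 threshold, the 8 stem cell markers summed highest in Gfra1+ cells (813 to 1031 CPM) and the 5 progenitor markers in Sox3+ cells (304 to 714 CPM) in every library. Gfra1 is among these 8 and Sox3 among these 5, so both orders are in part set by the thresholds. The 4 differentiation markers (the class gene Kit, Stra8, Dnmt3b and Ccnd2) were higher in Kit+ than in Sox3+ cells in all 4 libraries. Against Gfra1+ cells they were higher in CTRL (1447 and 837 CPM against 1043 and 756) but lower in BU (948 and 677 against 1453 and 1023). Ccnd2, a cyclin, made up most of the sum in Gfra1+ cells, and Stra8, a gene induced by retinoic acid, was higher in Kit+ than in both other classes in every library. In Ldhc/Meig1-rich cells the 4 differentiation markers summed to 148, 27.5, 456 and 62.6 CPM, highest in BU 1. The sort excluded c-KIT protein at the surface, so the Kit+ cells here are cells with Kit mRNA.

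RefSeq (GRCm38.p6) gave promoters for 9 of the 10 genes, in 13 windows of the 250 bases before an annotated start. Windows of Piwil4, Tdrd1 and Tdrd9, all higher in Sox3+ than in Gfra1+ cells in the results that follow, and of Mael, which differed at both later steps, are shown without the bases that GENCODE M21 annotates as exon. They are written 5′ to 3′ on the strand of the gene, with capitals for matches to any of 4 motifs read on both strands: CACGTG (E-box), CCAAT (NF-Y), TCCCGC (E2F) and TAACNG (MYB). No match overlapped another.
Piwil4, minus strand, chr9:14740734-14740922: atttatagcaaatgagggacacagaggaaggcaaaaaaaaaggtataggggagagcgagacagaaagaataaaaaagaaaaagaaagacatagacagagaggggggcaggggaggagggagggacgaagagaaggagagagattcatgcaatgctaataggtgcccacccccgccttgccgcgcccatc
Tdrd1, plus strand, chr19:56825959-56826208: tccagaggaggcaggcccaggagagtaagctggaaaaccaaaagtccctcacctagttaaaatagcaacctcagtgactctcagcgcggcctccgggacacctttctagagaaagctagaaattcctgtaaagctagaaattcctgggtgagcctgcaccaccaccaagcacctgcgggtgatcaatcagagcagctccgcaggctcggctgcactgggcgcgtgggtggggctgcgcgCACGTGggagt
Tdrd9, plus strand, chr12:111971309-111971558: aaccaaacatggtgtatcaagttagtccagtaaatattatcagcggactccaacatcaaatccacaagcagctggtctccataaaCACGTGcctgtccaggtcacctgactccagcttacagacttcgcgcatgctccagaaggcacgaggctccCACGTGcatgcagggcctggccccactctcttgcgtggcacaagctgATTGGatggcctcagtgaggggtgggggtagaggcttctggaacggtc
Mael, minus strand, chr1:166238748-166238994: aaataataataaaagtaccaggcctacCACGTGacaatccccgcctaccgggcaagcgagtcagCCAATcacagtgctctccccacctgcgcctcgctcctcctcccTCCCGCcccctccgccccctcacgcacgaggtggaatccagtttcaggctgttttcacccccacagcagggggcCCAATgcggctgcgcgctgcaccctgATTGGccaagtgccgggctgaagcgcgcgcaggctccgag

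The E-box letters were found in the windows of 7 of the 9 genes (Ddx4, Mael, Mov10l1, Piwil1, Pld6, Tdrd1 and Tdrd9), against 6.02% of the 32851 mouse promoter windows of this length. By window it was 8 of 13, as a second Tdrd1 window overlaps the one shown and holds the same site. Some genes had more than 1 window, so counts of genes and shares of windows are unlike measures. The E-box letters hold a CG pair, and the windows with this match held 8 to 31 such pairs, against a median of 6 in all windows. Windows with a like number of CG pairs were not compared. In Tdrd1 the match began 11 bases before the annotated start, and in Tdrd9 there were matches 165 and 95 bases before it. CCAAT was in the windows of 7 genes (33.8% of all windows), TAACNG in 3 (19.8%) and TCCCGC in 2 (16.9%). Neither window of Piwil4 held any of the 4. A match is a description of the letters, and absence concerns these letters in these windows.

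The genes lie apart from each other in the genome. On GRCm38 (GENCODE M21) Piwil4 is on chr9:14696230-14740733, Piwil2 on chr14:70372477-70429383 and Piwil1 on chr5:128702524-128755474. Tdrd1 (chr19:56826209-56870012), Tdrd9 (chr12:111971559-112068854) and Tdrkh (chr3:94413273-94434668) encode Tudor proteins. Mael is on chr1:166201201-166238747, Mov10l1 on chr15:88982909-89055152, Pld6 on chr11:59783897-59787645 and Ddx4 on chr13:112598333-112652475. All are protein-coding, and no 2 members share a chromosome.

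Piwil4 (MIWI2), the nuclear PIWI protein that directs DNA methylation of transposons, had its highest level in Sox3+ cells in all 4 libraries. Its level in Sox3+ cells, as CPM of the UMIs summed over the class in a library, was 26.9 and 40.8 in the CTRL pair of libraries, and 11.1 and 15.4 in the BU pair. Its level in Gfra1+ cells was 15.1, 11.2, 7.68 and 9.16 CPM in the same order. The level was thus higher in Sox3+ than in Gfra1+ cells in all 4 libraries, by 1.45 to 3.63 times. In Kit+ cells it was 0 and 9.15 in the CTRL pair of libraries, and 7.41 and 5.95 CPM in the BU pair, and these rest on 0, 2, 11 and 14 UMIs. With 0 UMIs, CTRL 1 allows up to 33.4 CPM (3 counts), so this library alone cannot place Kit+ below Sox3+ cells. In Ldhc/Meig1-rich cells Piwil4 had 5, 3, 0 and 2 UMIs, or 5.71, 0.631, 0 and 0.286 CPM.

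The share of cells with a Piwil4 UMI was read after each cell was thinned to 5000 UMIs, with shallower cells left out and classes called by any UMI of their gene in the thinned counts. In Sox3+ cells of the CTRL libraries it was 11.7% (exact binomial 95% interval 9.75 to 14.0) and 21.0% (17.1 to 25.4), and in those of the BU libraries 6.73% (3.73 to 11.0) and 5.26% (1.73 to 11.9). In Gfra1+ cells it was 7.72% (4.96 to 11.4), 10.1% (4.95 to 17.8), 2.98% (1.68 to 4.86) and 6.37% (3.69 to 10.1). The intervals of these 2 classes overlapped in all 4 libraries, and in BU 2 the shares ran against the levels, so no order of the classes is read from them. Cells high in somatic markers, which should lack the gene, gave 0 of 22 in CTRL 2 (which allows up to 13.6%) and 1.85% of 54 cells in BU 2 (0.0469 to 9.89) at the same depth. The somatic cells of the other 2 libraries numbered 2 and 3 at this depth and give no background. The BU 2 share in Sox3+ cells lies within the interval of its somatic background, and is not read as more than background by this measure. Without thinning, the Sox3+ shares were 20.7%, 63.9%, 11.2% and 31.7% at median depths of 8815, 34784.5, 9817.5 and 33940 UMIs, against somatic shares of 0%, 3.85%, 4.35% and 3.64% at 4335, 20967, 3867 and 16331 UMIs. The intervals cover counting error only.

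**Figure D1:**
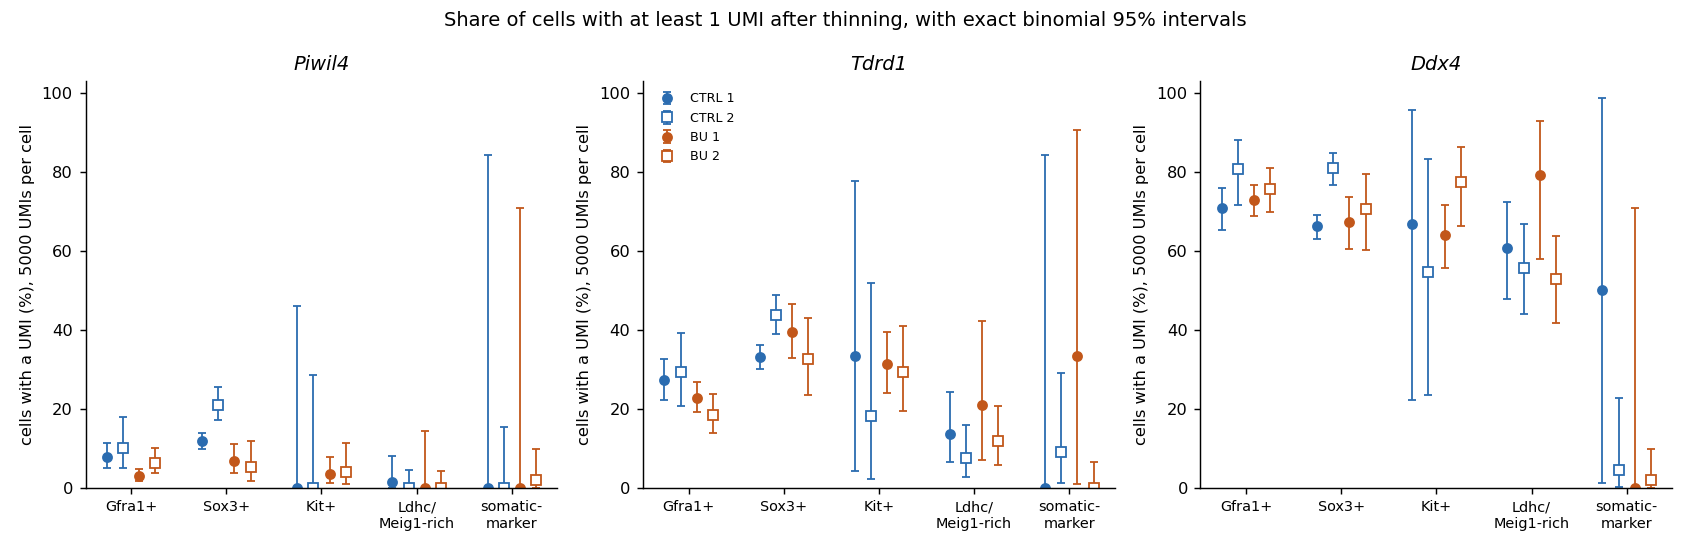
Share of cells with at least 1 UMI of Piwil4, Tdrd1 and Ddx4 (y axis, percent) in each cell class (x axis) after thinning to 5000 UMIs per cell, for CTRL (blue) and BU (orange) libraries of experiment 1 (filled circles) and 2 (open squares), with exact binomial 95% intervals. The Piwil4 intervals of Gfra1+ and Sox3+ cells overlap in every library, while Ddx4 is seen in over 50% of cells of every germ cell class, and the somatic points of experiment 1 rest on 2 and 3 cells.

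Piwil2 (MILI), the cytoplasmic PIWI protein that slices transposon transcripts, had a flatter course through the spermatogonia. Its level was 83.0, 93.5, 88.3 and 58.2 CPM in Gfra1+ cells of CTRL 1, CTRL 2, BU 1 and BU 2. In Sox3+ cells it was 112, 125, 111 and 79.4 CPM. All 4 libraries were higher in Sox3+ cells, by 1.25 to 1.36 times, and BU 2 was the lowest library in both classes. The level in Kit+ cells was 122, 146, 126 and 72.2 CPM, and in Ldhc/Meig1-rich cells 30.8, 15.1, 42.8 and 17.4 CPM, with no overlap between these 2 classes.

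Piwil1 (MIWI), the PIWI protein of meiotic and post-meiotic cells, stayed low in every spermatogonial class, between 5.95 and 22.3 CPM. The Kit+ values of CTRL 1 and CTRL 2 (22.3 and 18.3 CPM) rest on 2 and 4 UMIs. In Ldhc/Meig1-rich cells the level was 22.8 and 34.5 in the CTRL pair of libraries, and 7.13 and 76.7 CPM in the BU pair. BU 1 stood below the others there with 2 UMIs in 24 cells, and BU 2 stood above them with 536 UMIs in 150 cells.

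**Figure D2:**
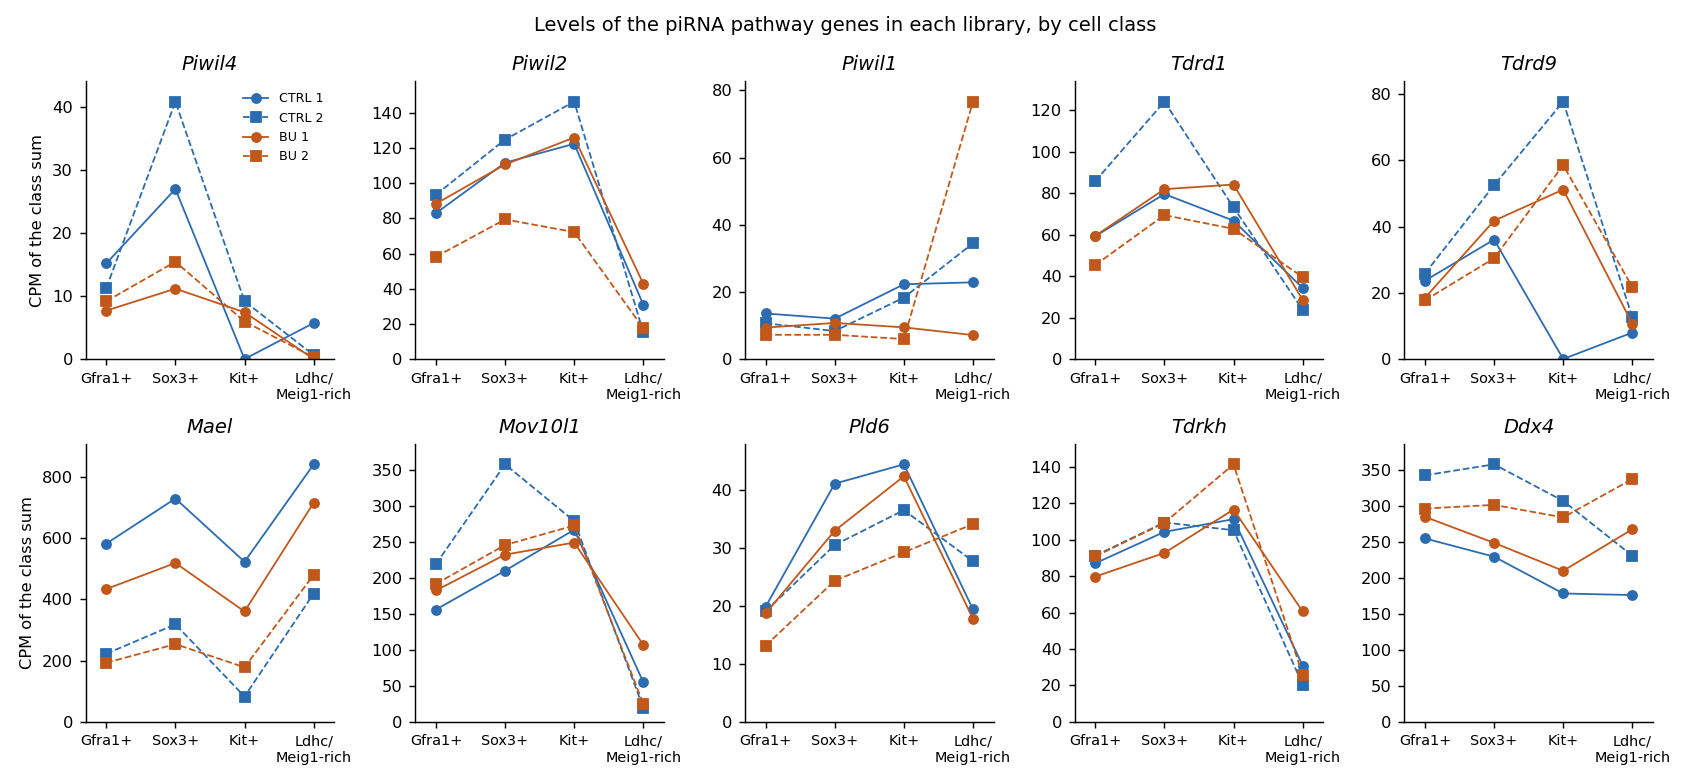
Level of each of the 10 genes (y axis, CPM of the UMIs summed over the class, not per length and from 0) in Gfra1+, Sox3+, Kit+ and Ldhc/Meig1-rich cells (x axis), with 1 line per library (blue CTRL, orange BU; circles and solid lines experiment 1, squares and dashed lines experiment 2). Piwil4 peaks in Sox3+ cells in all 4 libraries, Piwil2, Mov10l1 and Tdrkh drop in Ldhc/Meig1-rich cells, and the CTRL Kit+ points rest on 10 and 6 cells.

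Between Gfra1+ and Sox3+ cells, the step from stem cell to progenitor spermatogonia, 7 of the 10 genes were higher in Sox3+ cells and none was lower. Over all 12833 genes tested 22.9% were called, 11.4% as higher and 11.5% as lower in Sox3+ cells, by edgeR's quasi-likelihood test with the library as a block and Benjamini-Hochberg adjustment at 0.05. The median log2 difference of the 10 genes was 0.48 and that of all genes tested was -0.00. The largest was that of Piwil4, with a log2 fold change of 1.07 (SE 0.23, edgeR adjusted p = 0.0044). Tdrd9, the helicase that works with PIWIL4, was higher by 0.95 (SE 0.19, edgeR adjusted p = 0.0023), and Pld6, the mitochondrial endonuclease that cuts piRNA precursors, by 0.90 (SE 0.12, edgeR adjusted p = 0.00014).

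Smaller differences in the same direction were called for Tdrd1 and Mov10l1. Tdrd1, the Tudor scaffold that binds PIWIL2 in germ granules, was higher by 0.56 on the log2 scale (SE 0.11, edgeR adjusted p = 0.0018). Its level was 59.3, 85.9, 59.4 and 45.4 CPM in Gfra1+ cells and 79.6, 124, 82.0 and 69.5 CPM in Sox3+ cells of CTRL 1, CTRL 2, BU 1 and BU 2. Each library was higher in its Sox3+ cells, while the ranges over libraries overlapped. Mov10l1, the RNA helicase that hands precursors to processing, was higher by 0.51 (SE 0.11, edgeR adjusted p = 0.0042), from 156 to 219 CPM in Gfra1+ to 210 to 358 CPM in Sox3+ cells.

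Piwil2 was higher by 0.45 on the log2 scale (SE 0.10, edgeR adjusted p = 0.0040). Tdrkh, a mitochondrial Tudor protein needed for trimming of piRNA ends, was higher by 0.30 (SE 0.10, edgeR adjusted p = 0.040). This call was lost in 8 of 17 alternatives, among them those without CTRL 1, BU 1 or BU 2 (edgeR adjusted p = 0.15, 0.18 and 0.13). That of Tdrd9 was lost in 3 of 17, among them that without BU 1 (0.88, edgeR adjusted p = 0.051). Mov10l1 lost its call in 3 of 17, Piwil2 in 2, Piwil4 and Tdrd1 in 1 each and Pld6 in 0. Mael, a germ granule protein needed for transposon silencing, was 0.43 higher (SE 0.15, edgeR adjusted p = 0.053), which misses the threshold, although the level was higher in Sox3+ cells in 4 of 4 libraries. Neither Ddx4 (-0.02, SE 0.10, edgeR adjusted p = 0.90), the germline RNA helicase also called MVH, nor Piwil1 (-0.06, SE 0.20, edgeR adjusted p = 0.86) was called, and each was higher in 2 libraries and lower in 2. With no term for the library only Pld6 of the 10 was called.

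From Sox3+ to Kit+ cells 3 of the 10 genes were lower and none was higher, where 21.0% of the 12833 genes tested were called, 12.6% as lower and 8.45% as higher. Piwil4 was lower, with a log2 fold change of -1.56 (SE 0.37, edgeR adjusted p = 0.011). Within the 2 BU libraries alone, which hold most Kit+ cells, it was -1.17 (SE 0.32, edgeR adjusted p = 0.0051). Without BU 2 it was -1.51 and not called (edgeR adjusted p = 0.097), and thinned to 5000 UMIs per cell it was -1.38 (edgeR adjusted p = 0.077). Without the cells high in spermatid RNA it was -1.57 (edgeR adjusted p = 0.00089).

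Mael was the other clear difference of this step. Its level was 730, 318, 519 and 254 CPM in Sox3+ cells of CTRL 1, CTRL 2, BU 1 and BU 2, and 523, 82.4, 361 and 178 CPM in Kit+ cells. Every library was lower in Kit+ cells, and the 2 libraries of experiment 1 stood above those of experiment 2 in both classes. The log2 fold change was -0.86 (SE 0.17, edgeR adjusted p = 0.0042). Ddx4 was lower, with a log2 fold change of -0.34 (SE 0.11, edgeR adjusted p = 0.048), a call that was lost in 13 of 17 alternatives, among them the removal of any 1 library (edgeR adjusted p = 0.052 to 0.16).

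**Figure D3:**
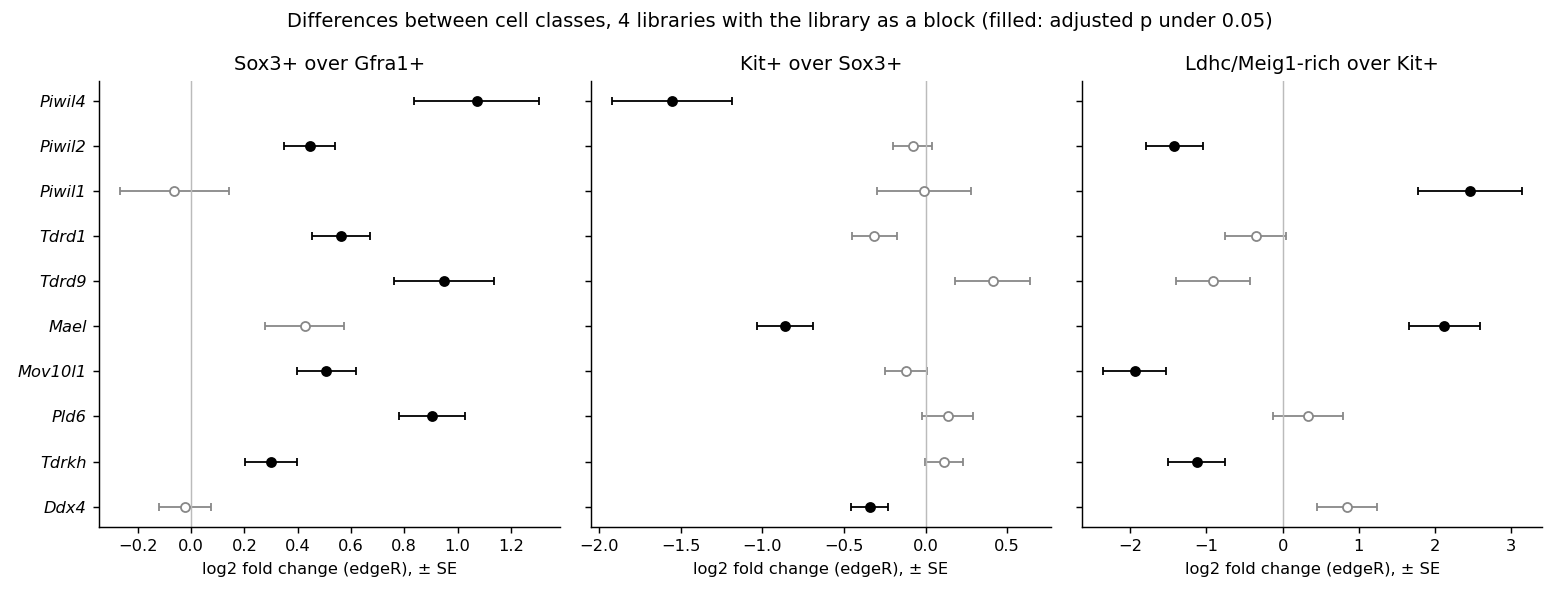
Log2 fold change (x axis, edgeR, with bars of 1 SE) of each of the 10 genes (y axis) for Sox3+ over Gfra1+, Kit+ over Sox3+ and Ldhc/Meig1-rich over Kit+ cells in 4 libraries with the library as a block. Filled points pass an adjusted p of 0.05: 7 lie above 0 in the left panel and 3 below 0 in the middle panel, and Piwil4 was too low to be tested in the right panel.

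Between Kit+ and Ldhc/Meig1-rich cells the members split. Of 9 genes tested, Piwil1 and Mael were higher in Ldhc/Meig1-rich cells and Piwil2, Mov10l1 and Tdrkh were lower. These are far-apart classes: 61.3% of the 11954 genes tested were called, 33.9% as higher and 27.4% as lower, so the count for the 10 genes is not above the background. The Ldhc/Meig1-rich cells were not alike over libraries, as those of BU 1 held the most RNA of differentiation markers. This comparison moved as a whole between methods, and the part of scaling in this was not tested. The median log2 fold change of all genes was -0.11 in edgeR with TMM scaling (4050 genes higher and 3274 lower) and 0.27 in DESeq2 (4231 higher and 1571 lower). Over the alternatives in edgeR this median ran from -0.15 (BU libraries alone) to 0.51 (CTRL libraries alone). It was 0.15 without the shallower barcode copies and 0.28 with doublets left out. The directions of the 5 members were the same in edgeR and DESeq2.

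Mael had a log2 fold change of 2.13 (SE 0.47, edgeR adjusted p = 0.00072), from the Kit+ levels above to 842, 419, 716 and 480 CPM in Ldhc/Meig1-rich cells of CTRL 1, CTRL 2, BU 1 and BU 2. Mov10l1 was lower, with a log2 fold change of -1.94 (SE 0.42, edgeR adjusted p = 0.00057). Its level was 267, 279, 249 and 273 CPM in Kit+ cells and 54.8, 18.9, 107 and 24.6 CPM in Ldhc/Meig1-rich cells. No library of one class overlapped the other.

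Piwil1 was higher by 2.46 (SE 0.68, edgeR adjusted p = 0.0043). Without BU 2 it was 1.39 and not called (edgeR adjusted p = 0.12), and in BU 1 its CPM was lower in Ldhc/Meig1-rich cells than in Kit+ cells. Piwil2 was lower, with a log2 fold change of -1.42 (SE 0.38, edgeR adjusted p = 0.0032), but not called without CTRL 2 (-0.85, edgeR adjusted p = 0.13) or without BU 2 (-1.25, edgeR adjusted p = 0.051). Tdrkh was lower, with a log2 fold change of -1.13 (SE 0.37, edgeR adjusted p = 0.013), a call lost in 11 of 15 alternatives, including without the shallower barcode copies (-0.85, edgeR adjusted p = 0.078) and without CTRL 2, BU 1 or BU 2 (edgeR adjusted p = 0.16, 0.064 and 0.30). Ddx4 had 0.85 (SE 0.39, edgeR adjusted p = 0.069) and was not called, but it was called without the shallower copies (1.15, edgeR adjusted p = 0.022). By CPM Ddx4 was higher in 2 libraries and lower in 2, with ratios of 0.752 to 1.28. Without the shallower copies the median of all genes moved too, from -0.11 to 0.15. The part of this shift in the values of Tdrkh and Ddx4 was not tested. The Ldhc/Meig1-rich cells of CTRL 2 and BU 2 had only 0.244 and 0.325 of their library's median depth, with 18 and 15 shallower copies among them, against 1.33 and 1.13 in CTRL 1 and BU 1, and the part of depth in these differences was not tested.

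The question of the BU comparison is how the surviving A_undiff differ at the start of regeneration. For this comparison a class holds every cell past its threshold, also those past another. Piwil4 then had a lower level in BU than in CTRL in both experiments, over all spermatogonia and in each class. Over all spermatogonia its level was 23.3 CPM and 32.7 in the CTRL pair of libraries, and 9.71 and 8.68 in the BU pair (CTRL 28.0 ± 6.66, BU 9.19 ± 0.728, mean ± SD, n = 2 each). The groups did not overlap, and the BU to CTRL ratio was 0.417 in experiment 1 and 0.265 in experiment 2.

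With condition as the only term, edgeR called 0 of 15935 genes in all spermatogonia (0%), although 2082 had an unadjusted p under 0.05, and DESeq2 called 549. In that fit Piwil4 had a log2 fold change of -1.63 (SE 0.30, edgeR adjusted p = 0.16). The library numbers mark experiments that shared kit and sequencing lane, and with the experiment as a replicate block edgeR called 3052 genes (19.2%), 8.53% as higher and 10.6% as lower. Piwil4 was then lower, with a log2 fold change of -1.62 (SE 0.27, edgeR adjusted p = 9.2e-07) and was the only one of the 10 genes called. The p-values of the block fits, here and below, lean on a spread shared over genes, so their size does not measure replicate spread. In Sox3+ cells a fold of -1.71 with a smaller SE (0.24) had an unadjusted edgeR p of 0.00062, against 1.4e-08 here. Without the cells high in spermatid RNA, which were 70 and 59 in the CTRL and 19 and 34 in the BU libraries, it was -1.62 with the block (edgeR adjusted p = 0.029). DESeq2 without the block called it as well (-1.62, DESeq2 adjusted p = 0.00086).

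The make-up of the spermatogonia differed between the groups. Sox3+ cells, in which Piwil4 is highest, made up 48.1% and 67.1% of CTRL spermatogonia but 24.0% and 24.7% of those after BU. Gfra1+ cells were 19.0% and 21.4% in CTRL against 43.6% and 46.5% in BU, and Kit+ cells 1.19% and 2.93% against 16.2% and 14.4%. In the sum over all spermatogonia, fewer Sox3+ cells and less Piwil4 RNA per cell cannot be told apart, and the classes were tested on their own. The Sox3+ class itself also differed between the groups. Its 5 progenitor markers, Sox3 among them, summed to 685 and 556 CPM in CTRL against 259 and 222 in BU. Its 8 stem cell markers summed to 132 and 144 CPM in CTRL against 197 and 300 in BU. Within this class, make-up and Piwil4 RNA per cell therefore cannot be told apart either.

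Within Sox3+ cells Piwil4 was at 25.6 CPM and 38.9 in the CTRL pair of libraries, and 10.2 and 10.3 in the BU pair. Both BU libraries were below both CTRL libraries. With condition alone edgeR called 0 of 14320 genes (1928 at an unadjusted p under 0.05, 316 by DESeq2), and with the replicate block 315 (2.20%, with 1.31% lower and 0.894% higher), of which Piwil4 was the only one of the 10 (-1.71, SE 0.24, edgeR adjusted p = 0.044). Cells that passed the Sox3 threshold alone numbered 1284 of 1453 and 548 of 641 in CTRL, but 242 of 470 and 126 of 262 in BU. Among these cells the value was -1.37 and not called (edgeR adjusted p = 0.084).

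Within Gfra1+ cells Piwil4 was at 15.2, 19.0, 8.20 and 8.86 CPM in CTRL 1, CTRL 2, BU 1 and BU 2. The groups did not overlap, and the log2 fold change was -0.90 both without the block (SE 0.32, edgeR adjusted p = 0.73) and with it (SE 0.27, edgeR adjusted p = 0.13). Neither passed, where edgeR called 0 of 13274 genes without the block (803 at an unadjusted p under 0.05, 37 by DESeq2) and 183 (1.38%, with 0.768% lower and 0.610% higher) with it. Among cells past the Gfra1 threshold alone Piwil4 had -0.53 with the block (edgeR adjusted p = 0.55), with BU to CTRL ratios of 0.507 and 0.816. Gfra1+ cells that were also Sox3+ numbered 148 of 573 and 77 of 204 in CTRL, and 100 of 855 and 57 of 492 in BU. Pld6 was at 25.4, 25.2, 19.0 and 13.7 CPM there, with -0.56 (SE 0.25, edgeR adjusted p = 0.35 with the block), and -0.23 among cells of 1 class (edgeR adjusted p = 0.79). Within Kit+ cells Piwil4 had 5, 16, 27 and 51 UMIs, or 15.1, 17.03, 8.20 and 5.99 CPM, and -1.27 with the block (SE 0.56, edgeR adjusted p = 0.36), where 249 of 10756 genes (2.31%, with 2.03% lower and 0.288% higher) were called, against 0 without it (722 at an unadjusted p under 0.05, 23 by DESeq2). Of these Kit+ cells 24 of 36 and 20 of 28 in CTRL, and 134 of 318 and 86 of 152 in BU, were also Sox3+. In cells past the Kit threshold alone the means of Piwil4 ran the other way, with 4.58 ± 6.47 CPM for CTRL against 6.68 ± 1.04 for BU (SD, n = 2), on 0 and 2 UMIs in CTRL, and it was too low there to be tested.

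Whether Piwil4 differed more between BU and CTRL in Sox3+ than in Gfra1+ cells was tested as an interaction over cells that passed 1 threshold. The difference was -0.83 on the log2 scale (SE 0.35, edgeR adjusted p = 0.43), where 54 of 12833 genes (0.421%, with 0.257% positive and 0.164% negative) were called and none of the 10. It was -1.36 without CTRL 1 (edgeR adjusted p = 0.0036) and -0.30 without CTRL 2 (edgeR adjusted p = 0.84), where the spread of CTRL is not measured and the lone CTRL library is assumed to vary like BU. With cells that passed more than 1 threshold kept it was -0.88 (edgeR adjusted p = 0.011). Such cells enter the sums of more than 1 class in that fit, so its sums are not independent and its p-value is not read as a call. Mov10l1 had -0.37 (SE 0.15, edgeR adjusted p = 0.42).

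**Figure D4:**
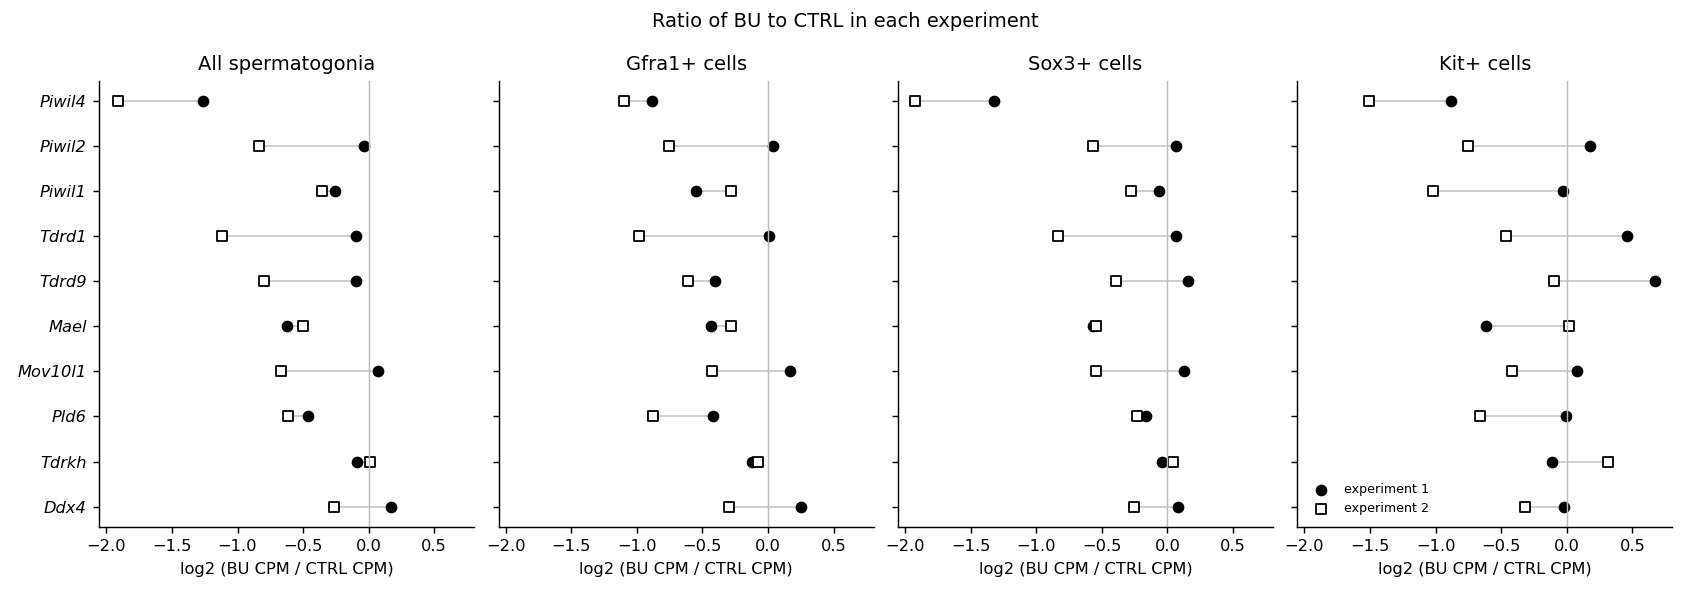
Log2 ratio of the BU to the CTRL level (x axis, CPM of summed UMIs) of each of the 10 genes (y axis) in experiment 1 (filled circles) and experiment 2 (open squares), for all spermatogonia and Gfra1+, Sox3+ and Kit+ cells. Piwil4 lies below 0 in both experiments in all 4 panels. Of the 10 genes 7 do so over all spermatogonia, 6 in Gfra1+ cells and 4 each in Sox3+ and Kit+ cells. The share of all genes that do so was not counted, so nothing about the pathway is read from these counts.

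None of the other 9 genes was called in BU against CTRL with the filter on low counts and all cells kept, with or without the block. Over all spermatogonia 7 of the 10 were lower in BU in both experiments (Piwil4, Piwil2, Piwil1, Tdrd1, Tdrd9, Mael and Pld6) and 3 in only 1 (Mov10l1, Tdrkh and Ddx4). Sox3+ cells were also a smaller share of this sum in BU. Within Gfra1+ cells 6 of the 10 were lower in both experiments, and within Sox3+ and Kit+ cells 4 each. The share of all genes lower in both was not counted. The median log2 fold change of the 10 genes was -0.46 against -0.03 for all genes tested. Mael was at 683, 281, 444 and 199 CPM in CTRL 1, CTRL 2, BU 1 and BU 2, lower in BU by similar ratios of 0.650 and 0.706 within experiments that differed more from each other than the conditions did. Its log2 fold change with the block was -0.59 over all spermatogonia (SE 0.23, edgeR adjusted p = 0.052) and -0.62 in Sox3+ cells (SE 0.12, edgeR adjusted p = 0.057). Neither passed the threshold. With doublets left out both did (edgeR adjusted p = 0.049 and 0.046), and in Sox3+ cells Mael was also called with no filter on low counts (edgeR adjusted p = 0.0030), thinned (0.026) and without cells high in spermatid RNA (0.033), but not without the shallower copies (0.056) or among cells of 1 class (-0.43, edgeR adjusted p = 0.30).

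Tdrd1 had unlike ratios in the 2 experiments. Its level over all spermatogonia was 72.0 CPM and 109 in the CTRL pair of libraries, and 67.3 and 50.3 in the BU pair, so that CTRL 1 and BU 1 lay close together. The BU to CTRL ratio was 0.935 in experiment 1 and 0.461 in experiment 2, and the log2 fold change with the block was -0.64 (SE 0.25, edgeR adjusted p = 0.058). Piwil2, Tdrd9 and Mov10l1 had the same split, with ratios of 0.974, 0.936 and 1.05 in experiment 1 and 0.560, 0.574 and 0.631 in experiment 2. Tdrkh lay between 90.4 and 102.9 CPM and Ddx4 between 233 and 343 CPM in all 4 libraries, with overlapping groups.

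The rest of the pathway was read from a list of 20 further genes, of which 19 were listed for every library and 18 could be tested between the classes. From Gfra1+ to Sox3+ cells 4 of the 18 were higher and 0 lower, where 11.4% of all genes were called higher and 11.5% lower. Spocd1, a nuclear factor needed for piRNA-directed DNA methylation, had a log2 fold change of 2.46 (SE 0.24) and Dnmt3l, the cofactor of the de novo DNA methyltransferases, 2.40 (SE 0.51). The other 2 were Henmt1, which methylates piRNA ends (0.95, SE 0.14), and Tdrd5, a Tudor protein of precursor processing (0.53, SE 0.13). The 18 genes had a median of 0.28, against -0.00 for all genes tested.

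From Sox3+ to Kit+ cells 9 of the 18 were lower (Spocd1, Mybl1, Pnldc1, Morc1, Tdrd5, Gtsf1, Gpat2, Henmt1 and Asz1) and only Tex15, a factor of piRNA-directed silencing, was higher (0.66, SE 0.14), where 12.6% of all genes were called lower and 8.45% higher. Spocd1 had the largest of these falls, with -2.74 (SE 0.43). Its Kit+ level was 0 to 22.3 CPM over the libraries and rests on few UMIs, as does that of Mybl1. Of 3 libraries with a ratio, Spocd1 was lower in 3, and Mybl1 was lower in 2 and higher in 1. From Kit+ to Ldhc/Meig1-rich cells 5 of 18 were higher, led by Tdrd6 (6.10, SE 0.63), a Tudor protein of spermatocytes and spermatids, with Mybl1, the transcription factor that drives meiotic piRNA genes (4.39, SE 0.81), Gtsf1, Dnmt3l and Tdrd7, and 3 were lower (Btbd18, Tex15 and Fkbp6). With 33.9% of all genes called higher and 27.4% lower there, these counts are not above the background. The folds of Tdrd6 and Mybl1 start from Kit+ levels near the floor, at 0 to 4.58 and 0 to 11.1 CPM over the libraries. Of 3 libraries with a ratio, Tdrd6 was higher in 3, and Mybl1 was higher in 2 and lower in 1.

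In BU against CTRL none of the 19 was called without the block. With it 5 were lower over all spermatogonia (Spocd1, Dnmt3l, Henmt1, Pnldc1 and Tdrd5) and Tex15 was higher (0.90, SE 0.25), where 10.6% of all genes were called lower and 8.53% higher. Of these, Spocd1, Dnmt3l, Henmt1 and Tdrd5 were also called higher in Sox3+ than in Gfra1+ cells. Sox3+ cells were a smaller share in BU, so make-up and RNA per cell cannot be told apart in this sum. As for Piwil4, this holds within the Sox3+ class too, whose make-up also differed. Spocd1 was at 29.9 CPM and 19.5 in the CTRL pair of libraries, and 4.56 and 3.13 in the BU pair. The groups stood well apart, with a log2 fold change of -2.70 (SE 0.28, edgeR adjusted p = 5.7e-14). It was also called in Gfra1+ (-1.99, SE 0.34), Sox3+ (-2.11, SE 0.21) and Kit+ cells (-2.90, SE 0.59) with the block, the only one of the list to be so. These classes overlap. Among cells past 1 threshold the Gfra1+ means were 5.96 ± 4.06 CPM for CTRL against 2.08 ± 0.187 for BU (SD, n = 2). The Sox3+ means were 31.8 ± 9.13 against 10.4 ± 0.425 CPM. In Kit+ cells they were 11.1 ± 15.7 against 1.65 ± 0.529 CPM, with a CTRL SD above its mean. Tex15 was at 136 CPM and 366 in the CTRL pair of libraries, and 498 and 365 in the BU pair, with BU to CTRL ratios of 3.67 in experiment 1 and 0.996 in experiment 2.

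The genes most like Piwil4 were Zbed5, Zfp940, Dgka, Ino80e and Sergef, with Pearson r of 0.98, 0.98, 0.97, 0.97 and 0.96 of log2 CPM over 12 sums (3 classes in 4 libraries) among 8816 genes. The sums share libraries and their depth, and Piwil4 was at 0 in 1 of them. Without the 2 Kit+ sums of CTRL the same genes had r of 0.93, 0.92, 0.89, 0.92 and 0.83, and ranks of 40, 57, 134, 59 and 328, so none of the 5 is among the most alike once those 16 cells are left out. For Tdrd1 the most alike were Tnks1bp1, Tfdp2, Zcwpw1, Zfp87 and Atg2a (0.89, 0.84, 0.84, 0.83 and 0.83), which ranked 4, 11, 33, 8 and 22 without those sums. Among the members themselves, Piwil4 with Tdrd9 had the highest r over the 12 sums (0.85), and both were at 0 in the Kit+ cells of CTRL 1. Without the CTRL Kit+ sums that r was 0.22, and the highest was that of Piwil2 with Tdrd1 (0.87).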

How the data were processed

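Gene by cell matrices of UMI counts, which the authors deposited for 4 libraries, were used as the authors made them with Cell Ranger 3.0.2 (matrix header), unnormalised and with 27998 genes (experiment 1) or 31053 genes (experiment 2) listed, of which 27514 were common. The study's methods give mm10 as the genome and the submitters' processing notes GRCm39. Labels give kit versions 2 and 3.1, and the methods version 2 for all. The members and gene lists were chosen with earlier results of these data known.

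A cell was kept if it had more than 1000 genes detected and a mitochondrial share below 20%. Cells with at least 2000 CPM of Ldhc plus Meig1, or at least 1000 CPM of somatic markers from 3 or more genes, were set apart from spermatogonia. Doublet scores (scanpy 1.11.5) marked 77, 10, 32 and 13 cells in CTRL 1, CTRL 2, BU 1 and BU 2, which were kept in the main results. These cells had the highest scores, at a number set in advance from an assumed rate of 0.8% per 1000 cells. The scoring tool's own threshold marked 0, 10, 9 and 7 cells. Counts were summed per library and class and tested with edgeR 4.0.16 (quasi-likelihood, TMM, filter on low counts, Benjamini-Hochberg) in R 4.3.3 over all genes. Each SE printed for edgeR is the absolute log2 fold change divided by the square root of the F statistic of its test. Class comparisons had the library as a block. BU was compared with CTRL with condition alone, and with experiment as a replicate block. The replicate numbers name experiments in the labels, and deviations of same-numbered libraries from their group means correlated at 0.651. DESeq2 1.42.0 was an alternative. The fits were also run on simulated counts. Their spread was smaller than that in the BU against CTRL fits, so no support for the calls is drawn from them. Each library pools 3 mice, so p-values concern libraries and not single mice. In the block fits few sums are left to measure the spread of each gene. Their p-values therefore lean on a spread that edgeR shares over all genes. Named genes were the 10 members and a list of 20 further pathway genes, with the 5 genes of highest Pearson r to Piwil4 and Tdrd1. Promoter sequences came from RefSeq (GRCm38.p6), gene positions from GENCODE M21 (GRCm38).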

Additional observations from a re-analysis of the deposited data

How the results depend on the processing

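With the replicate block, BU against CTRL gave 3052 called genes in all spermatogonia, 183 in Gfra1+, 315 in Sox3+ and 249 in Kit+ cells against 0 without it, and 1 of the 10 genes in all spermatogonia and in Sox3+ cells. DESeq2 gave 549, 37, 316 and 23, with 1 member in the same 2. With no filter on low counts edgeR gave 261, 137, 345 and 329, with 1 member in Sox3+ cells, and 301 for the interaction. In the block fits, no filter gave 739 (Gfra1+) and 2329 (Sox3+, 2 members), thinning 1367 (all), 6, 547 (2 members) and 119, leaving out shallower copies 293 (Gfra1+) and 161 (Kit+), leaving out cells high in spermatid RNA 776 (all), 1133 (Sox3+, 2 members) and 124 (Kit+), leaving out doublets 748 (Sox3+, 2 members; also 2 in all), and cells of 1 class 76, 22 (0 members) and 0 (Kit+).

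For Sox3+ against Gfra1+ cells, classes by any UMI gave 4 members, thinning 1908 genes, no library term 646 (1 member), and somatic cells kept 1861. For Kit+ against Sox3+ cells these gave 449 (1 member), 917 (1), 220 (0) and 1513, and the CTRL libraries alone 530 (1). For Ldhc/Meig1-rich against Kit+ cells thinning gave 3304 (3 members), CTRL alone 3043 (2) and BU alone 4520 (3). Cells high in spermatid RNA left out gave 4564 genes in Sox3+ against Gfra1+ cells. For the interaction, classes by any UMI gave 26, spermatid cells left out 309 and overlapping classes 1354 (1 member). Overlapping classes share cells between sums, so that last count is not read as calls.

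Leaving out 1 library, with the lone library of its group assumed to vary like the others, gave 0 to 44 (all), 0 to 3 (Gfra1+), 0 to 316 (Sox3+) and 20 to 239 (Kit+) called genes for BU against CTRL, 1597 to 3674 (5 to 8 members), 497 to 3096 (1 to 2) and 3447 to 7486 (2 to 7) for the 3 class steps, and 2 to 517 (0 to 2) for the interaction. Mael without the block ran from -1.30 to 0.21 (all) and -1.33 to 0.091 (Sox3+). Between Sox3+ and Gfra1+ cells Ddx4 ran from -0.10 to 0.039, and was 0.10 in CTRL alone and 0.044 with somatic cells kept, and Piwil1 was 0.015 with overlapping classes, 0.053 in BU alone and 0.0052 with somatic cells kept. The cause was not tested. Of 255 alternative values of printed called folds, 199 stayed called, 56 did not, and 0 changed sign.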
